A study of Mus musculus with 78 samples.

Results

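Khdc1a, Khdc1b and Khdc1c are neighbouring genes of the mouse that encode small KH domain proteins. They were found in the deposited gene tables as the rows that carry the Entrez identifiers of these symbols, and all 3 were present, among 15218 genes listed for the 4-cell stage and 15342 listed for the 8-cell stage. The data came from Rainbow-seq, which joins a fluorescent record of cell ancestry to the transcriptome of each blastomere, a blastomere being 1 cell of a cleaving embryo. The tables held 24 blastomeres of the 4-cell stage and 26 of the 8-cell stage, while the labels described 78 cells. The embryos were hybrids of strains that carry the allele Gt(ROSA)26Sortm1(CAG-Brainbow2.1)Cle or the transgene Tg(CAG-cre/Esr1*)5Amc, so that every cell carried the colour construct and a tamoxifen-inducible Cre under the broadly active CAG promoter. All of them received 4-Hydroxytamoxifen in KSOM medium at the 2-cell stage and were then cultured in vitro, and no untreated embryos entered the comparison. The column names of the tables matched no label, so blastomeres were assigned to no embryo or lineage here. Each stage was therefore treated as 1 sample, with no test between stages, and the samples of the 5-cell and 6-cell stages were not analysed here.

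KH domains bind single-stranded RNA, and the Khdc1 genes belong to a mammalian family of KH genes expressed in oocytes and early embryos, together with Dppa5a, Khdc3 and Ooep. KHDC1B has been described as a partner of CPEB, the protein that controls polyadenylation and translation of stored maternal mRNA. KHDC1A has been described as a translational repressor that resides at the endoplasmic reticulum and can set off apoptosis when overexpressed.

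The members lie on the plus strand of chromosome 1 in GRCm38.p6, the assembly behind mm10. Khdc1a spans chr1:21349677-21352199, Khdc1c spans chr1:21368331-21369743 and Khdc1b spans chr1:21383556-21386384, each with 3 exons. The coding sequences of Khdc1a and Khdc1c, 501 bases each, were identical at 500 positions. The sole coding difference was T416C, counted from the first base of the start codon with the Khdc1a base first, and it falls in exon 3. It is given in capitals within 30 coding bases of each gene, because it is the only base by which their coding sequences can be told apart.
Khdc1a, chr1:21350994-21351023: agttcctcacttctTgaggtttcctttgac
Khdc1c, chr1:21369628-21369657: agttcctcacttctCgaggtttcctttgac

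Khdc1b is the divergent member. Its coding sequence matched that of Khdc1a at 98 of 100 bases in exon 1 and at 176 of 183 bases in exon 2. In exon 3 the genes matched at 81 of 218 aligned positions and differed by 17 substitutions. The remaining positions were gaps, as the coding sequence of Khdc1b is shorter there. The stretch of exon 2 in which these genes differ most is shown with the differing bases in capitals, since it is a place where reads of Khdc1b can be told from those of its neighbours.
Khdc1a, chr1:21350402-21350431: gaaaagtggggagtaagaacaAtTtGgatC
Khdc1c, chr1:21369036-21369065: gaaaagtggggagtaagaacaAtTtGgatC
Khdc1b, chr1:21384319-21384348: gaaaagtggggagtaagaacaCtCtCgatA

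The coding sequence of Khdc1b ends earlier, after 381 bases, so that it encodes 126 residues against 166 for each of the others. Its last 30 coding bases are given with the stop codon in capitals, above the bases at the same distance into exon 3 of the other genes, where the reading frame runs on.
Khdc1b, chr1:21384870-21384899: tcagggagcagttgttggttccctgatTGA
Khdc1a, chr1:21350944-21350973: tcagggagcagtctttggattaccacaatg
Khdc1c, chr1:21369578-21369607: tcagggagcagtctttggattaccacaatg

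These likenesses bear on the levels, because only uniquely aligned reads were counted by the authors. Of the 100-base windows that each transcript holds, 1350 of 1851 (72.9%) were found nowhere else in the genome for Khdc1a, 1800 of 2148 (83.8%) for Khdc1b and 266 of 745 (35.7%) for Khdc1c. Khdc1a and Khdc1c shared 479 windows with each other, and neither shared any with Khdc1b. The windows that Khdc1b lacked for itself matched other places, among them the processed pseudogene Gm17793 on chromosome 11. The annotated Khdc1c transcript is short, at 844 bases against 1950 for Khdc1a and 2247 for Khdc1b, and the genome beyond its annotated end continued to resemble exon 3 of Khdc1a for a further 1101 bases, at 96.6% identity over the whole stretch. Reads from there would not have been counted for Khdc1c. Whether these shared stretches, or strain differences in hybrid embryos, moved reads between Khdc1a and Khdc1c was not tested.

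Levels are given as FPKM, fragments per kilobase of exon and per 1000000 counted fragments, and a gene is called detected above FPKM 1. The denominators recovered from the values lay between 6863081 and 16864475 fragments per blastomere at the 4-cell stage and between 2333752 and 21735097 at the 8-cell stage. The libraries had the profile of cleavage-stage blastomeres: the germline and pluripotency genes Dppa3 and Pou5f1 had median FPKM of 3658 and 41.5 at the 4-cell stage and of 3260 and 110 at the 8-cell stage, although the maternal genes Ooep and Zar1 were low or at 0. Follicle cell markers, listed for 3 of 7 genes at the 4-cell stage and 2 of 7 at the 8-cell stage, summed to at most FPKM 3.06, and fibroblast markers, listed for 2 and 3 of 4 genes, to at most 6.13. The markers that had rows were at 0 in the median blastomere, while Fshr, Foxl2, Inha, Ptx3, Col1a2 and the 3 blood markers had no rows used here. At each stage 3 blastomeres had fewer than 5000 detected genes, and detection, order, stage ratios and relations between members are given with and without these gene-poor cells. They were S18, S20 and S24 at the 4-cell stage and S55, S57 and S58 at the 8-cell stage.

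Khdc1b was the most abundant member in 4-cell blastomeres. Its FPKM ran from 15.4 in S11 through a median of 75.7 to 257 in S7, and it was detected in 24 of 24 blastomeres, with an exact Clopper-Pearson 95% interval for that share from 85.8% to 100%. This interval, like the others below, covers counting error only. It treats blastomeres as independent although cells of an embryo share their source, so it may be too narrow for the stage. A median of 2305 fragments stood behind each value. By median level Khdc1b ranked 1266 of the 15218 listed genes.

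Khdc1a and Khdc1c were lower at this stage and lay close to each other. Khdc1a ran from FPKM 0.053 in S18 through a median of 21.6 to 60.9 in S5 and was detected in 22 of 24 blastomeres, or 91.7%, with an interval from 73.0% to 99.0%. Khdc1c ran from 0 through a median of 17.6 to 44.5 in S24 and was detected in 21 of 24, or 87.5%. The middle range of Khdc1a, from 16.8 to 35.1 between its quartiles, overlapped that of Khdc1c, from 9.03 to 24.3, while that of Khdc1b, from 56.3 to 130, lay above both.

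The blastomeres that lacked Khdc1a or Khdc1c at the 4-cell stage were few and were mostly the gene-poor ones. S18, with 3009 detected genes, had 1 fragment of Khdc1a and none of Khdc1c, and S20, with 3699 detected genes, had 5 and none. The same cells were among the highest for Khdc1b, at FPKM 171 and 253. S21 also had no fragment of Khdc1c, at Khdc1a 9.39 and Khdc1b 128. A count of 0 in these 3 libraries allows a Khdc1c level of up to FPKM 0.368, 0.267 and 0.229, each being the value of 3 fragments. Without the gene-poor cells, Khdc1a was detected in 21 of 21 and Khdc1c in 20 of 21 blastomeres.

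**Figure D1:**
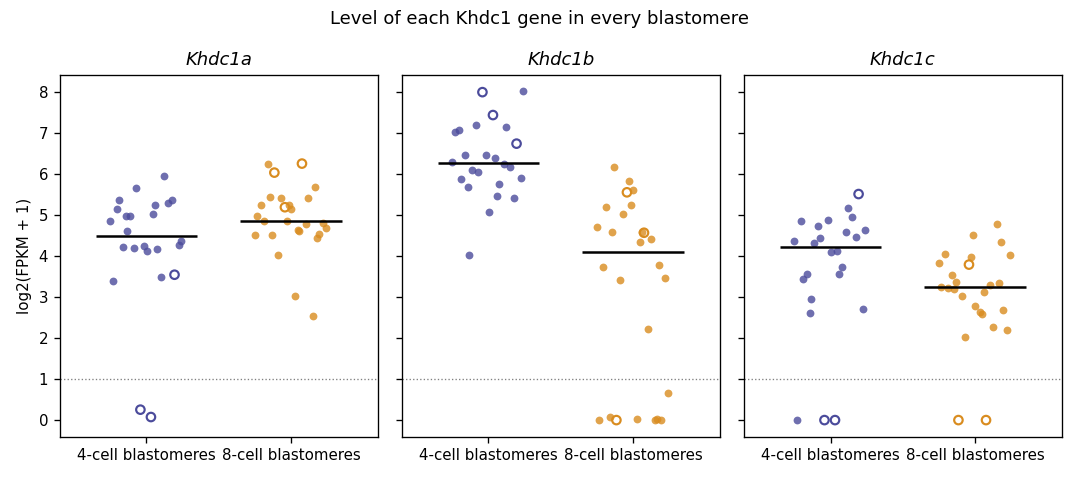
Level of each Khdc1 gene as log2(FPKM + 1) on the vertical axis in 24 blastomeres of the 4-cell stage and 26 of the 8-cell stage; each point is 1 blastomere, open points are cells with fewer than 5000 detected genes, black bars are medians and the dotted line is FPKM 1. Khdc1b lies lower at the 8-cell stage, where 8 cells fall below the line, while the Khdc1a values of both stages cover much the same range apart from 2 open points near 0.

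At the 8-cell stage the order was different. Khdc1a was now the highest member, from FPKM 4.79 in S54 through a median of 27.9 to 75.02 in S57, and it was detected in 26 of 26 blastomeres. Khdc1b ran from 0 through a median of 16.02 to 70.6 and was detected in 18 of 26 blastomeres, or 69.2%, with an interval from 48.2% to 85.7%. Khdc1c ran from 0 through a median of 8.38 to 26.2 in S54 and was detected in 24 of 26, or 92.3%. The quartiles of Khdc1a, 22.4 and 40.2, lay above those of Khdc1c, 5.27 and 13.03, whereas those of Khdc1b, 0.183 and 30.02, overlapped both.

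The Khdc1b values at the 8-cell stage fell into a low set and a broad higher set. It was at 0 in S54, S56, S58 and S59, rested on 1 fragment in S52 and S67 and on 2 in S53, and reached FPKM 0.589, or 23 fragments, in S64. The next value was 3.66 in S49, and the other 17 lay above it. The zeros allow only levels well below FPKM 1. In these libraries 3 fragments correspond to FPKM 0.0725 in S54, 0.0716 in S56, 0.106 in S58 and 0.0626 in S59. Most of these low cells had fewer detected genes than the median cell of the stage: S58, S53, S56, S54 and S67 had 4263, 5106, 5248, 5391 and 5884 of them, and S59, S52 and S64 had 6513, 6801 and 6835, beside a stage median of 6773. Khdc1b was detected in 2 of the 7 cells with fewer than 6000 detected genes and in 16 of the 19 others, and the part of library complexity in this was not tested. In 7 of the 8 low cells Khdc1a and Khdc1c were both detected. The exception was S58, where Khdc1a was at FPKM 64.3 and Khdc1c at 0. Of the low cells, S52, S53, S54, S56, S58 and S59 have neighbouring column names, with S55 and S57 between them at FPKM 45.8 and 22.6. As blastomeres were assigned to no embryo, a shared origin of low cells cannot be told apart from differences between single cells.

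Absence of Khdc1c at the 8-cell stage was confined to gene-poor cells in this table. Its 2 zeros were in S57 and S58, and the library of S57 had the fewest fragments of all, so that its zero allows a level of up to FPKM 1.52. In S58 the limit was FPKM 0.283. Detection of Khdc1c without the gene-poor cells was 23 of 23, and that of Khdc1b 16 of 23.

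Set side by side, the stages differed most in Khdc1b. Its median was 4.73-fold lower at the 8-cell stage (log2 ratio -2.24), and that of Khdc1c was 2.10-fold lower (log2 ratio -1.07), while that of Khdc1a was 1.29-fold higher (log2 ratio 0.37). Among 7131 genes with a median above FPKM 1 at either stage, 21.1% were at least 2-fold lower at the 8-cell stage and 12.2% at least 2-fold higher, and the median log2 ratio was -0.12. Khdc1b and Khdc1c were thus 2 of 3 members past the 2-fold line, against that background of 21.1%. Of the genes compared, 12.5% had a lower ratio than Khdc1b and 20.1% a lower ratio than Khdc1c. No test stands behind these ratios, since each stage was 1 sample.

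The direction for Khdc1b was the same with and without the gene-poor cells, and that for Khdc1a was not. Without gene-poor cells the log2 ratio was -2.47 for Khdc1b, -1.15 for Khdc1c and -0.07 for Khdc1a, whose sign thus turned. With cells under 6000 detected genes left out, a limit chosen after the values were seen, these were -1.75, -1.22 and -0.15. For Khdc1b it was -2.91 without the 5 columns named NA, whose removal took its 8-cell median to FPKM 10.1, and -3.13 as a difference of mean log2(FPKM + 1). Khdc1c sat at the 2-fold line and fell inside it at -0.58 on the latter measure and at -0.99 after rescaling to the same sum of listed genes. Khdc1a was higher at the 8-cell stage under the other settings tried, by 0.37 to 0.80 on the log2 scale.

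Counts of blastomeres show how far the stages overlapped. All 26 values of Khdc1b at the 8-cell stage lay below its 4-cell median, 13 of them lay below the lowest 4-cell value, and 13 of 24 values at the 4-cell stage lay above the highest 8-cell value. Without the gene-poor cells these counts were 22 of 23, 12 of 23 and 10 of 21, respectively. For Khdc1c, 23 of 26 values lay below the 4-cell median, yet none lay below the lowest 4-cell value, which was 0. For Khdc1a, 22 of 26 values lay above the 4-cell median, but only 9 of 23 did so once the gene-poor cells were left out at both stages.

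Loss of detection was counted over all genes at a limit that Khdc1b itself had called for. Khdc1b was 1 of 19 genes, or 1.41% of the 1351 that were detected in every 4-cell blastomere, that were not detected in at least 25% of 8-cell blastomeres. Khdc1b no longer met that limit among cells with at least 6000 detected genes, where it was missing from 15.8% of 8-cell blastomeres. Among those cells 64 of 2993 genes, or 2.14%, met it. The reverse at the same limit held for 19 of 1749 genes detected in every 8-cell blastomere, or 1.09%, and no member was among them. A gap in at least 1 cell of the 4-cell stage was found for 818 of those 1749 genes (46.8%), Khdc1a included, through S18 and S20 alone. These criteria were chosen after the values were seen.

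**Figure D2:**
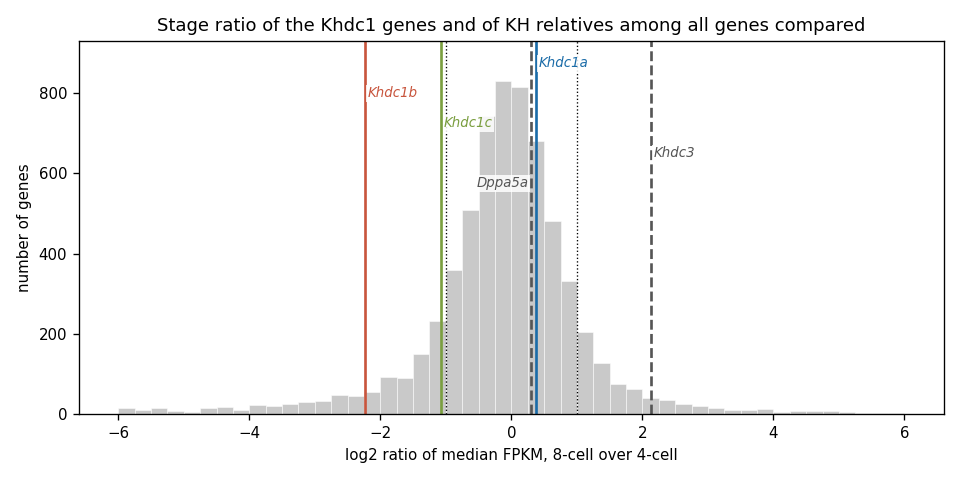
Number of genes (vertical axis) by log2 ratio of the median FPKM at the 8-cell over the 4-cell stage (horizontal axis, bins of 0.25) for genes with a median above FPKM 1 at either stage; 560 genes below -6 and 188 above 6, including those with a median of 0 at a stage, are not drawn. Solid lines mark Khdc1a at 0.37, Khdc1b at -2.24 and Khdc1c at -1.07, dashed lines the relatives Dppa5a at 0.31 and Khdc3 at 2.13, and dotted lines the 2-fold limits.

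The makeup of the family signal within a cell also differed between the stages. With the exon length, Khdc1b supplied a median of 63.8% of the summed FPKM of the members at the 4-cell stage and 27.7% at the 8-cell stage. The share of Khdc1a went from 22.2% to 55.7%, and that of Khdc1c was 14.5% and 14.7%. Without gene-poor cells the shares were 61.7% and 30.3% for Khdc1b, 24.3% and 54.6% for Khdc1a and 14.8% and 15.4% for Khdc1c. The sum itself had a median of FPKM 127 at the 4-cell stage and 62.2 at the 8-cell stage.

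Within single cells, Khdc1b exceeded Khdc1a in 23 of 24 blastomeres of the 4-cell stage, by a median ratio of 2.92, and in 7 of 26 of the 8-cell stage, where the median ratio was 0.516. The exception at the 4-cell stage was S11, with Khdc1b at FPKM 15.4 and Khdc1a at 23.5. Khdc1b exceeded Khdc1c in 24 of 24 and 15 of 26 blastomeres, and Khdc1a exceeded Khdc1c in 19 of 24 and 25 of 26, all with the exon length. The exception at the 8-cell stage was S54, with Khdc1c at 26.2, Khdc1a at 4.79 and no Khdc1b. Without gene-poor cells, Khdc1b exceeded Khdc1a in 20 of 21 and 6 of 23 blastomeres and Khdc1c in 21 of 21 and 13 of 23, and Khdc1a exceeded Khdc1c in 17 of 21 and 22 of 23. The genes were detected together in 21 of 24 and 17 of 26 cells, and in 20 of 21 and 16 of 23 without the gene-poor ones.

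**Figure D3:**
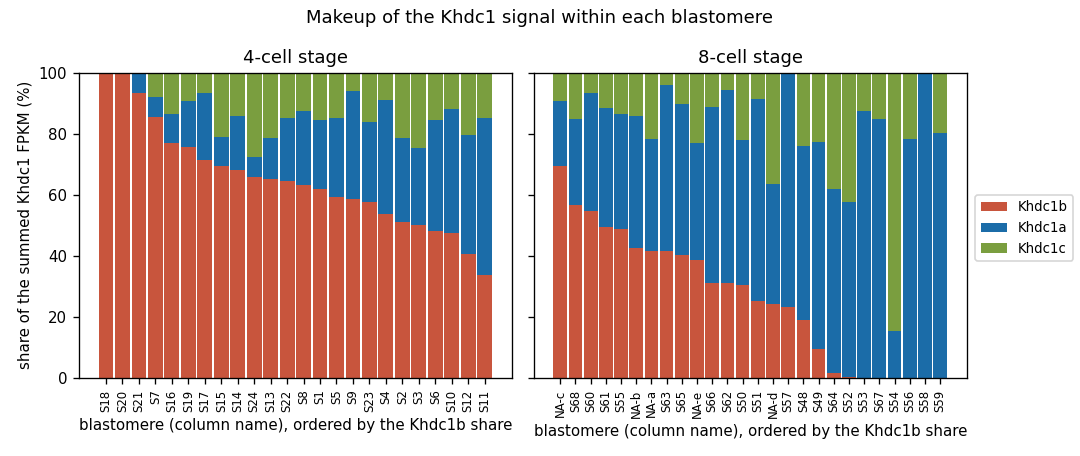
Share of each gene in the summed FPKM of Khdc1a, Khdc1b and Khdc1c (vertical axis, percent) for each blastomere, ordered by the Khdc1b share, with the 4-cell stage on the left and the 8-cell stage on the right; columns deposited under the name NA carry an added letter. Khdc1b is the largest part in 23 of 24 cells on the left and in 7 of 26 on the right, where Khdc1a is the largest in 18 and Khdc1c in 1.

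Comparing members by level also depends on length, because shared sequence takes reads from some genes more than from others. Dividing by the number of windows found nowhere else, in place of the exon length, gave medians of 31.1 for Khdc1a, 94.5 for Khdc1b and 55.8 for Khdc1c at the 4-cell stage, and of 40.3, 20 and 26.6 at the 8-cell stage, on the FPKM scale with unique positions as the length. Khdc1b stayed highest at the 4-cell stage and Khdc1a at the 8-cell stage. Within cells on this scale, Khdc1b exceeded Khdc1a in 22 of 24 and 5 of 26 blastomeres and Khdc1c in 19 of 24 and 12 of 26, while Khdc1a exceeded Khdc1c in 9 of 24 and 18 of 26. The median share of Khdc1c on it was 28.8% and 28.4% of the sum, beside 49.6% and 21.1% for Khdc1b and 20.4% and 43.3% for Khdc1a. Khdc1c moved above Khdc1a in the former and above Khdc1b in the latter, so the place of Khdc1c in the order was not settled by these data. The windows stand for single reads, whereas the data were read pairs counted as fragments, in which a unique mate can place the other. The number of unique windows may thus understate the length that could be counted, and a length for pairs was not computed. The stage ratio of each gene is the same under either length.

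**Figure D4:**
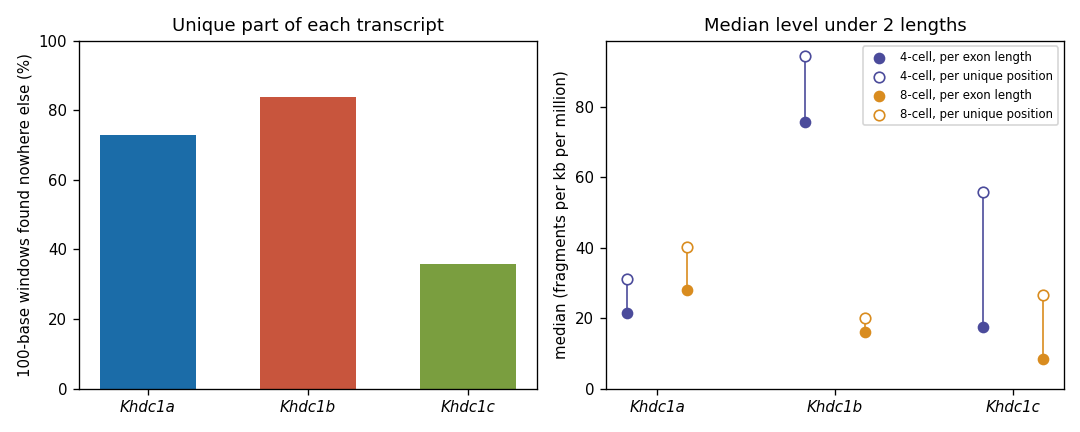
Left, percent of the 100-base windows of each transcript that occur nowhere else in the genome (vertical axis): 72.9% for Khdc1a, 83.8% for Khdc1b and 35.7% for Khdc1c. Right, median level of each gene (vertical axis, on the FPKM scale) at each stage with all exon positions (filled points) or unique positions only (open points) as the length; Khdc1c moves most, from 17.6 to 55.8 at the 4-cell stage.

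The spread between cells of a stage differed most between the stages for Khdc1b. The coefficient of variation of FPKM was 65.3% for Khdc1b at the 4-cell stage, larger than that of 33.2% of the 6763 genes with a median above FPKM 1, and 101% at the 8-cell stage, larger than that of 70.2% of 6234 genes. For Khdc1a it was 59.9% and 53.4%, and for Khdc1c 67.4% and 66.9%, larger than that of 24.03% to 38.1% of genes. Without the gene-poor cells it was 63.1% and 104% for Khdc1b, 47.3% and 49.5% for Khdc1a and 53.3% and 59.5% for Khdc1c. The order of the stages thus turned for Khdc1a and Khdc1c.

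Relations between the members over cells were mixed in sign and moved with the measure and the cells used. At the 4-cell stage Spearman's rank correlation over 24 blastomeres was -0.35 between Khdc1a and Khdc1b, 0.34 between Khdc1a and Khdc1c and 0.22 between Khdc1b and Khdc1c. At the 8-cell stage, over 26 blastomeres, the same pairs had 0.09, -0.27 and 0.10. These values are descriptions, as cells of an embryo share their source. Without gene-poor cells they were -0.13, 0.27 and 0.52 at the 4-cell stage and 0.16, -0.11 and -0.02 at the 8-cell stage, so the values rested in part on those cells. Pearson's r on log2(FPKM + 1) over all 24 blastomeres of the 4-cell stage was 0.72 for Khdc1a with Khdc1c and -0.19 for Khdc1b with Khdc1c.

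Complexity of the library moved with the members at the 4-cell stage. The rank correlation with the number of detected genes was 0.64 for Khdc1a, -0.39 for Khdc1b and 0.34 for Khdc1c, and without the gene-poor cells 0.47, -0.16 and 0.32. At the 8-cell stage it was -0.38, 0.27 and 0.23, and without the gene-poor cells -0.19, 0.37 and 0.06, so that the signs for Khdc1a and Khdc1b were opposite to those at the 4-cell stage. The rank correlation with the fragment denominator lay between 0.03 and 0.05 at the 4-cell stage and was -0.08, -0.32 and 0.40 for Khdc1a, Khdc1b and Khdc1c at the 8-cell stage. The part of complexity in the levels was not tested.

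**Figure D5:**
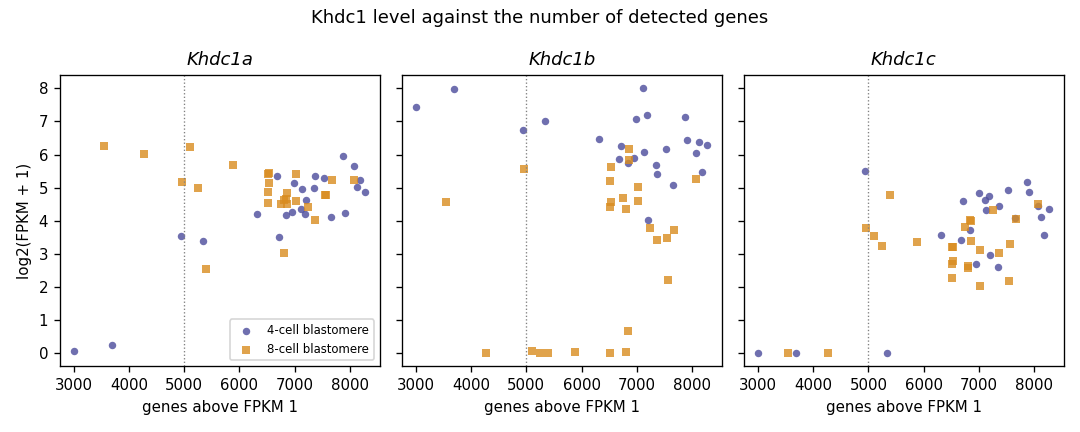
Level of each gene as log2(FPKM + 1) (vertical axis) against the number of genes above FPKM 1 in the same blastomere (horizontal axis); circles are 4-cell and squares 8-cell blastomeres, and the dotted line marks 5000 genes. The low Khdc1a values at the 4-cell stage are S18 and S20, the cells with the fewest genes, whereas the 8-cell blastomeres with Khdc1b below FPKM 1 extend from 4263 to 6835 genes.

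The genes whose levels ran most alike to a member were ranked at each stage. Among 6877 genes detected in at least 50% of the 4-cell blastomeres, those nearest to Khdc1a were Lrrc15, Secisbp2, Aptx, Dhrs7b and Nme4, with rank correlations from 0.87 to 0.81. Near to Khdc1b were Rasa2, Smg1, Man1a2 and Tor1b, from 0.68 to 0.64. Near to Khdc1c were Acot8, Atp6v0d1, Glud1 and Aamdc, from 0.79 to 0.75. Glud1 encodes a mitochondrial enzyme, and Smg1 a kinase of nonsense-mediated mRNA decay.

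At the 8-cell stage, over 6324 genes, Rpusd2, Tmed5, Rcor3, Nmt2 and Psmc3ip were nearest to Khdc1a, with rank correlations from 0.64 to 0.60. Smarca5, Gatc, Becn2, Miga1 and Dkkl1 were nearest to Khdc1b, from 0.74 to 0.63, and Rab26os, Nhej1, Tmem229b, Pdcd2l and P3h4 to Khdc1c, from 0.73 to 0.67. Smarca5 encodes the ATPase of ISWI chromatin remodellers, and Becn2 a relative of the autophagy protein Beclin. These lists shared no gene, and none of the members was among the nearest of another. Lists this short, taken from so many genes, would rarely share a gene in any case, so nothing is read from this. At the 4-cell stage, the rank correlations of these 8-cell genes with the same member ran from -0.57 to 0.46. The lowest was that of Becn2 with Khdc1b, beside 0.67 at the 8-cell stage. The highest was that of Tmed5 with Khdc1a, beside 0.62 at the 8-cell stage. With so many genes and so few cells some high values arise in any such ranking: at the 4-cell stage 5% of genes lay above 0.59 for Khdc1a, 0.32 for Khdc1b and 0.49 for Khdc1c, and at the 8-cell stage above 0.33, 0.36 and 0.40.

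Of the other KH genes of the family, Dppa5a was detected in every blastomere at median FPKM 1039 and 1285 (log2 ratio 0.31). Khdc3, a component of the subcortical maternal complex of the oocyte, had medians of 101 and 443 and was higher at the 8-cell stage (log2 ratio 2.13). Ooep, of the same complex, was at 0.645 and 0, detected in 11 of 24 and 9 of 26 blastomeres, and was not compared.

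Few genes next to the family had rows in these tables. Of 17 annotated genes whose start lies within 500 kb of a member, 3 were listed: Tram2, a translocon-associated protein, the glutathione transferase Gsta3 and the transcribed pseudogene Gm4956. All had a median of 0 at both stages, with highest values of FPKM 11.96 and 6.27, 16.4 and 6.53, and 26.7 and 47.8, respectively. The others were not analysed here. The windows from 250 bases before to 50 after the annotated starts aligned at 86.1% identity between Khdc1a and Khdc1c, 58.5% between Khdc1a and Khdc1b and 54.3% between Khdc1b and Khdc1c. The letters of the TATA box (TATAAA), searched on both strands, were in none of these 3 windows. Of 32851 RefSeq promoter windows of that length on GRCm38, 13.6% held them. The other motifs searched, AAGGTCA and TAATCC, were also in none of the 3 and in 4.72% and 7.06% of the RefSeq windows. At such shares absence from 3 windows cannot be told apart from the background.

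Genes that act on stored mRNA, the process in which KHDC1B and KHDC1A have been placed, were compared for 9 of 20. Of these 9, 1 was at least 2-fold lower and 0 higher at the 8-cell stage, beside 21.1% and 12.2% of all genes compared. So few genes cannot be told apart from those shares. Their median log2 ratio was 0.06, beside -0.12 for all genes. The lower one was Btg4, an adaptor for deadenylation of maternal mRNA, at median FPKM 11.6 and 0.114 (log2 ratio -6.66). Parn, a deadenylase, lay at -0.999, just inside the line, at 20.2 and 10.1. At the other end were Cpeb2 at 1.02 and 1.41 (0.47) and the poly(A) polymerase Tent2 at 54.6 and 72.8 (0.42). Cpeb1, the CPEB of the oocyte, had a median of 0 at both stages and was detected in 8 of 24 and 6 of 26 blastomeres.

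Endoplasmic reticulum stress genes, listed because of the site given for KHDC1A, were compared for 5 of 10. Of these, 2 were at least 2-fold lower and 1 higher at the 8-cell stage, beside 21.1% and 12.2% of all genes compared. Here too, so few genes cannot be told apart from those shares. Their median log2 ratio was -0.81, beside -0.12 for all genes. Hspa5, the main chaperone of this compartment, was at median FPKM 274 and 72.4 (log2 ratio -1.92), and Ddit3, a stress-induced transcription factor, at 10.5 and 0. Atf6, a stress sensor, was at 1.69 and 4.12 (1.29), and Atf4 at 55.9 and 71.5 (0.36). Hsp90b1 was at 16.9 and 9.66 (-0.81).

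Most other listed transcripts of the oocyte and the 2-cell embryo had medians under FPKM 1, with Zp3 and Tdpoz4 well above it. Of 8 zona and oocyte-secreted genes, 2 were compared, namely the zona protein gene Zp3 at 83.2 and 45.6 (log2 ratio -0.87) and the growth factor gene Gdf9 at 4.39 and 0. Of 18 genes of the 2-cell burst of transcription, Tdpoz4 alone was compared, at 42.1 and 26.8 (-0.65). The remaining burst genes had medians under FPKM 1 at both stages where they were listed.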

How the data were processed

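Single blastomeres were amplified by SMART-seq2 and sequenced as paired 100-base reads. The authors aligned reads to mm10 with STAR 2.5.1b, counted uniquely aligned fragments over RefSeq genes taken from UCSC with HTSeq, and deposited FPKM values by Entrez identifier. Members and gene lists were chosen with earlier results of these data known. Members were taken by identifier, since symbols of Khdc1b and Khdc1c serve as synonyms of each other. The 50 gene columns matched no sample label and were kept as cells of 1 sample per stage, with no p-value. Fragments were recovered as FPKM times RefSeq exon length times a denominator at which low values became whole. Identifiers were found in the annotation for 15200 and 15320 genes. Named genes were the members, KH relatives, neighbours within 500 kb, the extremes of other lists and the 5 genes most alike to a member by rank correlation, of which some are not reported here. Sequences are from RefSeq on GRCm38.p6, searched with BLAST+ 2.17.0 and biopython 1.88; statistics used Python 3.11.15, pandas 2.3.3 and scipy 1.17.1. Repeat tables were not used here.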

Additional observations from a re-analysis of the deposited data

How the results depend on the processing

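No paired analysis was possible because the names of the blastomere columns match no sample label; for the same reason the fits on embryo means, the lineage comparison and the leaving out of embryos were not run. Rescaling each blastomere to the same sum of listed genes changed the unit, so that 4-cell medians became 47.6 (Khdc1a), 168.7 (Khdc1b) and 39.0 (Khdc1c) and 8-cell medians 66.8, 38.5 and 19.6, in an unchanged order. Dividing by unique windows, an alternative chosen after seeing the data, took Khdc1c to 55.8 and 26.6, respectively. The Khdc1c log2 ratio was -0.58 or -0.49 as a difference of mean log2 values with pseudocounts of 1 or 0.1, and -0.99 on the rescaled values. The number of genes lower at the 8-cell stage was 869 with the first of these and 2320 without a filter on low values, against 1508. Without gene-poor blastomeres, detection became 100% for Khdc1a at the earlier stage and for Khdc1c at the later one, as it did for Khdc1c at both stages with a limit of 6000 genes, and the coefficient of variation at the 4-cell stage became 47.3% for Khdc1a and 53.3% for Khdc1c. On the same cells the rank correlation was -0.13 for Khdc1a with Khdc1b and 0.52 for Khdc1b with Khdc1c, while over all cells Pearson's r on log2(FPKM + 1) was 0.72 for Khdc1a with Khdc1c and -0.19 for Khdc1b with Khdc1c. The causes were not tested. The Khdc1b log2 ratio lay between -4.06 and -1.75 over the settings tried. Values with under 3 fragments are at the limit of detection.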
